A study of Mus musculus with 6 samples.

Results

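The motile cilia genes are 34 genes that encode axonemal dyneins, radial spoke proteins, tektins, other axonemal proteins and regulators of ciliogenesis. They were listed by name, and a member was kept where any FPKM (read fragments scaled to transcript length and to sequencing depth) of its transcripts was above 0. All 34 listed genes met this rule, out of 22368 genes with any nonzero FPKM in the table. The rule used no difference between groups.

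The cochlear basilar membrane of C57BL/6 mice was analysed by RNA-sequencing at 1 month of age (young) and at 12 months of age (old). Each group had 3 samples, and each sample was a pool of tissue from 3 mice, so that the spread between samples is a spread between pools. The labels give no genetic change and no drug, and all animals were of 1 strain, which is known for early age-related hearing loss. The depth was estimated at 12280000 to 15410000 fragments per sample from the steps between low FPKM values. Single samples stood apart for markers of other tissues. The choroid plexus gene Ttr was at 207 FPKM in young 1 against 19.3 to 30.4 FPKM elsewhere, and the secretory gene Bpifa1 at 157 and 161 FPKM in young 1 and young 3 against 13.8 to 30.4 FPKM elsewhere.

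Motile cilia beat because axonemal dyneins, arranged as outer and inner arms on the microtubule doublets, slide the doublets against each other, while radial spokes, the central pair and the nexin-dynein regulatory complex shape the beat. The transcription factor Foxj1 switches on many of these genes, and Mcidas acts earlier to commit a cell to making many cilia. In the ear, cells with many motile cilia line parts of the middle ear, whereas a cochlear hair cell carries a single kinocilium, which mouse cochlear hair cells lose as they mature. Primary cilia, which most cells carry, are built by intraflagellar transport and lack the dynein arms. The dissected tissue is a mixture of cell types, and fewer cells of a type and less RNA per cell cannot be told apart in it.

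Most motile cilia genes were at a low level in the cochlea. The median of their mean FPKM over the 6 samples was 0.211, against 3.91 over all genes with a nonzero FPKM, and 17.3% of those genes lay below the members' median. The mean was at least 1 FPKM for 7 members, from 0.1 to 1 FPKM for 17 members and below 0.1 FPKM for 10 members. The radial spoke gene Rsph9 stood far above the other members with a mean of 30.1 FPKM. It was followed by Ccdc39 with 3.18, Drc1 with 2.72, Cfap44 with 2.30, Ccdc114 with 1.52, Tekt1 with 1.35 and Foxj1 with 1.25 FPKM.

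The level of the whole set per sample was mainly the level of Rsph9, which held 53.8% to 66.9% of the summed FPKM. With Rsph9 left out, the other members summed to 20.6, 18.8 and 18.4 FPKM in the young samples and to 17.9, 20.9 and 18.8 FPKM in the old samples. These sums overlapped between the groups. Of the 34 members, 24 were above 0 in every sample and 10 were at 0 in 1 or more samples.

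**Figure D1:**
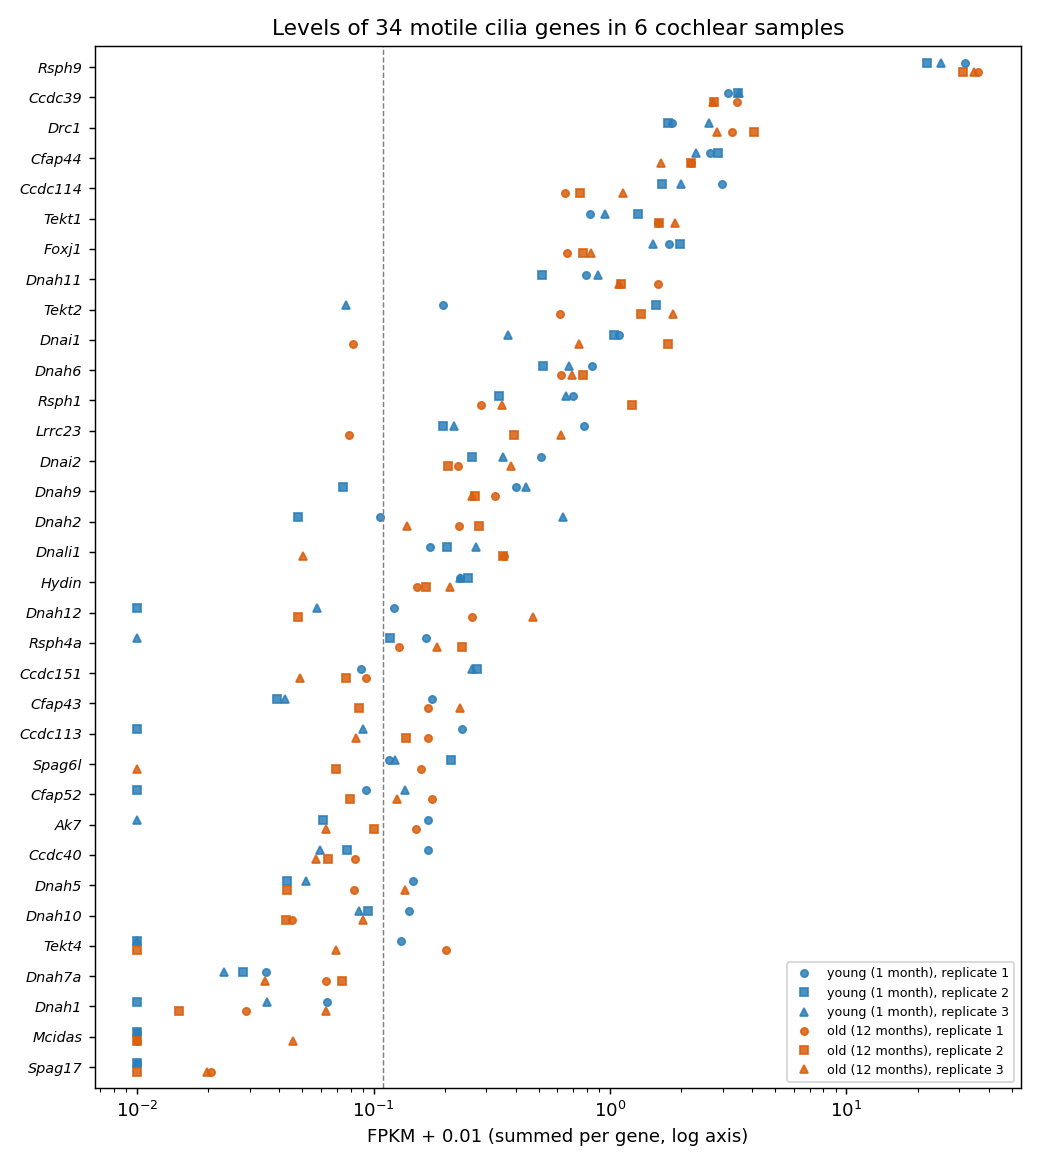
FPKM of each of the 34 members in each of the 6 samples (x axis, FPKM + 0.01, log scale), with members ordered by their mean, blue for young and orange for old, and marker shape for the replicate. The dashed line marks the limit of 0.1 FPKM used as the filter on means, and Rsph9 sits alone above 20 FPKM on the right while points at the left edge are samples at 0.

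A member was tested where its mean was at least 0.1 FPKM, which 24 of the 34 members passed. Old was compared with young by limma on log2(FPKM + 0.1), with Benjamini-Hochberg adjustment of p over all 19465 genes tested. Foxj1 and Ccdc114 were lower in the old cochlea, and no member was higher. The count of 2 lower members is 8.33% of those tested, against 3.81% of all genes tested, and the count of 0 higher members stands against 5.65% of all genes tested. At an unadjusted limma p under 0.05, 4 members were higher (Drc1, Rsph9, Tekt1 and Dnah11) and 2 were lower. These are 16.7% and 8.33% of the tested members, against 14.6% and 13.1% of all genes tested. Of the 24 tested members, 12 had a positive and 12 a negative fitted change, with a median log2 change of 0.02 against 0.01 over all genes.

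Both calls were close to the threshold, and leaving out 1 sample mostly lost them. Leaving out any 1 of young 1, young 2, old 1, old 2 or old 3 left 0 members past the threshold, and leaving out young 3 left 1 member, Foxj1. The fitted log2 changes stayed at -1.23 to -1.04 for Foxj1 and at -1.52 to -1.07 for Ccdc114, while the number of all genes called fell from 1840 to between 62 and 1771.

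**Figure D2:**
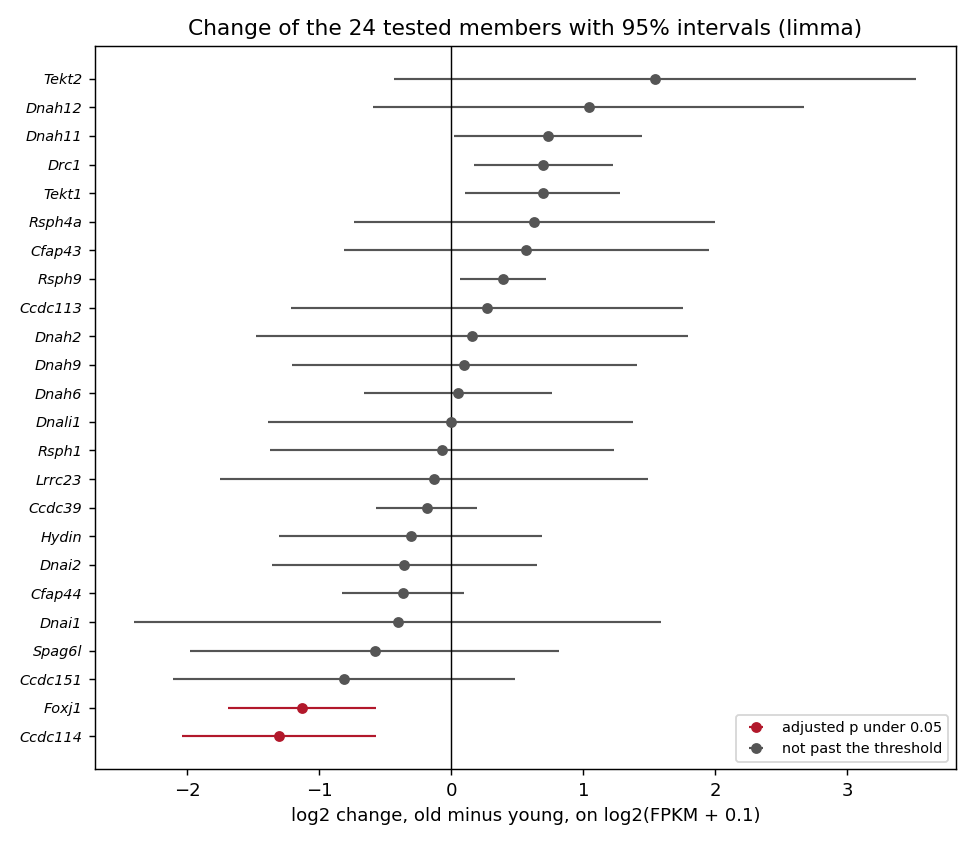
Fitted log2 change (old minus young, on log2(FPKM + 0.1), x axis) of each of the 24 tested members, with its 95% interval from limma. Ccdc114 and Foxj1, in red, passed the adjusted threshold, while Tekt2 and Dnah12 had the largest fitted rises with intervals that hold 0.

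In all 3 old samples, 3 tested members (12.5%) lay above all young samples, against 17.6% of all genes tested, and these were Drc1, Tekt1 and Dnah11. A further 4 members (16.7%) lay below all young samples in all old samples, against 16.1% of all genes tested, and these were Foxj1, Ccdc114, Cfap44 and Hydin. In the remaining 17 tested members the groups overlapped. These shares were near or below those over all genes.

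The promoters of 4 of the more abundant members are shown because a regulator of ciliary genes, the RFX family, is known to bind an X-box, whose half-site is GTTGCC. Windows from 250 bases before to 50 bases after the start were taken from RefSeq (GRCm38.p6), where 31 of the 34 members had an entry and Foxj1, Rsph1 and Rsph4a did not. Both strands were searched for GTTGCC, which reads GGCAAC on the other strand. It was present in the windows of 12 of 31 members (38.7%) and in 12.5% of all 32851 windows. These shares are not on the same footing. Each member has 1 window, the nearest to the start of its most abundant transcript, while the 12.5% is over every window. For Dnah9, Dnah12, Dnai1 and Dnah2 this window lay 30719 to 240593 bases from the start of that transcript. A match is a description of the letters in the window and is not evidence of binding. Drc1 (chr5:30281143-30281442, plus strand), Tekt1 (chr11:72361833-72362132, minus strand) and Cfap44 (chr16:44394549-44394848, plus strand) hold the half-site, printed in capitals, and the window of Ccdc114 (chr7:45923965-45924264, plus strand) does not. The windows of Rsph9 and Ccdc39, which were more abundant than these 4 genes and are not shown, do not hold it either.

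Drc1: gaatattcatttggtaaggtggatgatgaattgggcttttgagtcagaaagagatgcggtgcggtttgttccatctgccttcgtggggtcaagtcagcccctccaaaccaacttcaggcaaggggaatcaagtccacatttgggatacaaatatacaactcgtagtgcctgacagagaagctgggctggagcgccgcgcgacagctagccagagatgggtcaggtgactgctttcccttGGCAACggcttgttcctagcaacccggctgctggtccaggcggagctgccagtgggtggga
Tekt1: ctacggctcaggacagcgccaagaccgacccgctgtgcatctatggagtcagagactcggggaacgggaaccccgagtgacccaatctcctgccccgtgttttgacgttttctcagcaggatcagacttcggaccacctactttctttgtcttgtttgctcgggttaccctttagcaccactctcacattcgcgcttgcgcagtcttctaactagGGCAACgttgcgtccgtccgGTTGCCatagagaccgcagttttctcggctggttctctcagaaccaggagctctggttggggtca
Cfap44: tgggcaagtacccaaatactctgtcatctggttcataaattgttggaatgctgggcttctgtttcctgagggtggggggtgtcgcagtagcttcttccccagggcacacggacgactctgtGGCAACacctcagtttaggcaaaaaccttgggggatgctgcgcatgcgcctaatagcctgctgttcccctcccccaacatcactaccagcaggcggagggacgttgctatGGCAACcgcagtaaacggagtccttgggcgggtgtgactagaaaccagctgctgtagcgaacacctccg
Ccdc114: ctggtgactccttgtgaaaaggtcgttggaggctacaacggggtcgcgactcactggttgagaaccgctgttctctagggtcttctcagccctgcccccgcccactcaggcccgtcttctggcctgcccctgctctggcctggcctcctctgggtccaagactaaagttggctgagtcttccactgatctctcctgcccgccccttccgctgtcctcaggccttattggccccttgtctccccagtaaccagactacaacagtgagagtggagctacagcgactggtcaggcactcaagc

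In Drc1 the match begins 11 bases before the start. Tekt1 has 2 matches, which begin 35 and 15 bases before the start, and Cfap44 has 2, which begin 129 and 19 bases before it. Of these 4 genes, Drc1 and Tekt1 had higher FPKM in every old than in every young sample, and Cfap44 and Ccdc114 had lower FPKM.

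Among the regulators, Foxj1 (ENSMUSG00000034227, chr11:116330704-116335399, minus strand, GRCm38) fell in the old cochlea. Its FPKM was 1.77, 1.98 and 1.51 in the young samples and 0.647, 0.762 and 0.824 in the old samples. The lowest young sample was thus well above the highest old sample. The fitted log2 change was -1.13 (SE 0.24, 95% interval -1.69 to -0.57, adjusted p = 0.0332 by limma with Benjamini-Hochberg adjustment). The values correspond to about 162 fragments over the young samples and 72.1 over the old samples. An exact permutation test of the FPKM gave a 2-sided p of 0.1, which is the smallest that 3 samples against 3 allow.

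Mcidas, the regulator that commits cells to multiple cilia, was listed at 0 in 5 of the 6 samples. The exception was old 3 with 0.0358 FPKM, or about 1 fragment (0.999). At this depth Mcidas was not detectable in the young group, and it was not tested.

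The outer dynein arm is anchored to the doublet by a docking complex, and its 2 members in the set are Ccdc114 and Ccdc151. Ccdc114 (ENSMUSG00000040189, chr7:45924072-45948963, plus strand) fell, with 2.97, 1.65 and 2.00 FPKM in the young and 0.635, 0.736 and 1.12 FPKM in the old samples. The groups did not overlap, and young 1 was the highest. The fitted log2 change was -1.30 (SE 0.31, 95% interval -2.04 to -0.57, adjusted p = 0.0453 by limma), on about 181 fragments over the young and 69.7 over the old samples.

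Ccdc114 has 4 transcripts in the table, of which the most abundant pair is given here. ENSMUST00000210039 had 1.92, 0.508 and 0.882 FPKM in the young and 0.0440, 0.187 and 0.251 FPKM in the old samples. ENSMUST00000038720, which starts further downstream at 45928398, had 0.660, 0.597 and 0.806 FPKM in the young and 0.330, 0.402 and 0.565 FPKM in the old samples. In both transcripts every old sample lay below every young sample, as in ENSMUST00000211367, while in ENSMUST00000210602 the groups overlapped. These transcripts are parts of the same summed level. With the most abundant transcript of each gene in place of the sum, Ccdc114 had an adjusted p of 0.0740 by limma. Assignment of fragments between such overlapping isoforms is an estimate of the assembler. Ccdc151 was lower in the old group on average (0.198 against 0.0628 FPKM), but its log2 change of -0.81 had an SE of 0.55 and a 95% interval of -2.11 to 0.48.

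**Figure D3:**
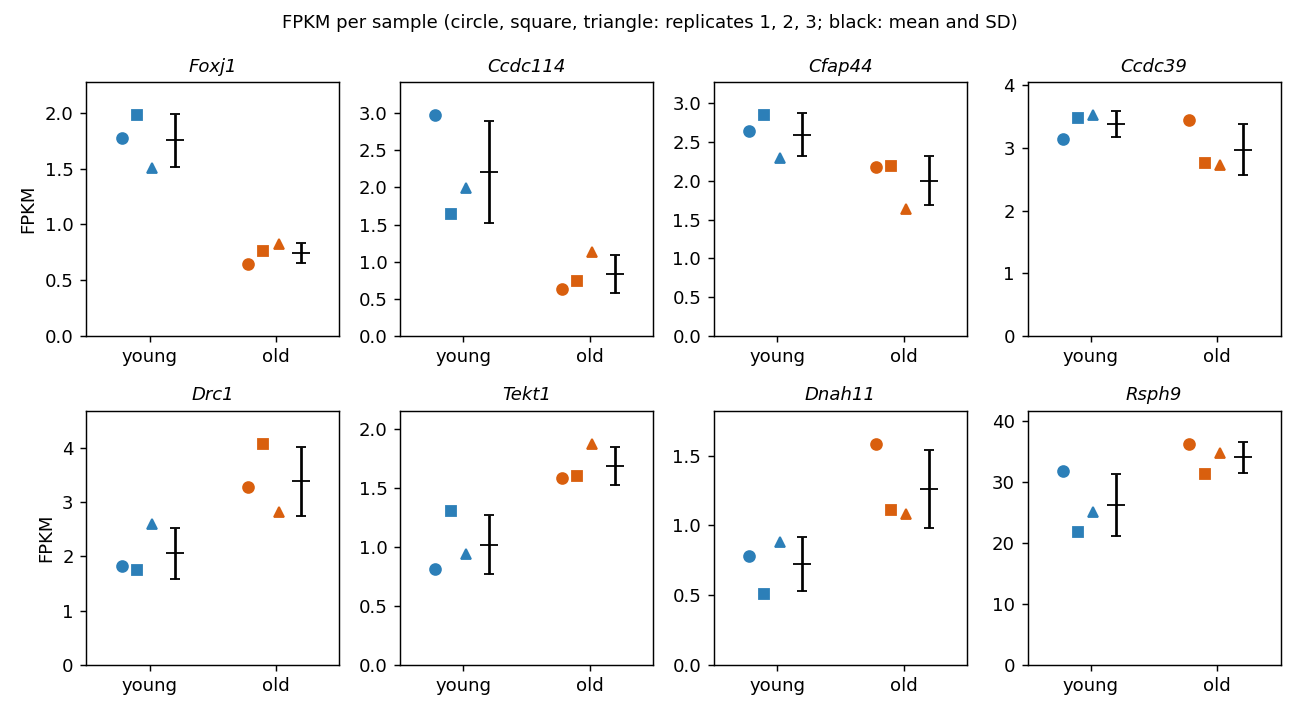
FPKM per sample of the 8 members with the highest mean (y axis from 0, own scale in each panel), with circle, square and triangle for replicates 1, 2 and 3, blue for young, orange for old, and the group mean with its SD in black. Foxj1, Ccdc114 and Cfap44 have all old samples below all young samples, Drc1, Tekt1 and Dnah11 have all old samples above, and Ccdc39 and Rsph9 overlap.

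The set holds 9 axonemal dynein heavy chains, the motors of the arms, of which 5 were tested. None passed the adjusted limma threshold (0 of 5), against 5.65% higher and 3.81% lower of all genes tested. Dnah11 was the 1 at an unadjusted p under 0.05, which 14.6% of all genes tested reached as higher and 13.1% as lower. Dnah11, an outer arm heavy chain, was the most abundant of the 9 (ENSMUSG00000018581, chr12:117877982-118199043, minus strand). It had 0.779, 0.507 and 0.882 FPKM in the young and 1.58, 1.11 and 1.08 FPKM in the old samples. The groups did not overlap, and the log2 change of 0.73 (SE 0.31, 95% interval 0.02 to 1.45) had an adjusted p of 0.172 by limma. Because its transcript is long, this rests on about 388 fragments over the young and 706 over the old samples. The gene overlaps Cdca7l (mean 2.70 FPKM) on the opposite strand.

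Dnah6, an inner arm heavy chain, had 0.826, 0.510 and 0.658 FPKM in the young and 0.613, 0.759 and 0.683 FPKM in the old samples. The groups overlapped, and the log2 change of 0.05 had a 95% interval of -0.66 to 0.77. Dnah12, also of the inner arm, had the second largest fitted rise among the members, 1.04 with an SE of 0.70, at a mean of 0.152 FPKM. This rise came from ENSMUST00000073309, a transcript of 611 nt with 0.214 FPKM in old 1, 0.451 FPKM in old 3 and 0 in the other samples. The long transcript of Dnah12, ENSMUST00000022433, went the other way, with means of 0.0532 FPKM in the young and 0.0289 FPKM in the old samples, and the estimated fragments of the gene were 24.3 over the young and 16.9 over the old samples. The outer arm chain Dnah9 (0.285 FPKM) and the inner arm chain Dnah2 (0.229 FPKM) had fitted log2 changes of 0.10 (SE 0.56) and 0.16 (SE 0.70). In both genes short transcripts held much of the young level.

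In Dnah2 a transcript of 696 nt, ENSMUST00000208777, had 0.535 FPKM in young 3. The long Dnah2 transcript ENSMUST00000035539 had 0.0956, 0.0375 and 0.0855 FPKM in the young and 0.220, 0.115 and 0.128 FPKM in the old samples. The groups of this transcript did not overlap, while those of the summed gene did. Among all genes tested, 17.6% had every old sample above every young sample. In Dnah9 a transcript of 837 nt, ENSMUST00000130739, had 0.279 and 0.354 FPKM in young 1 and young 3. The estimated fragments were 40.7 over the young and 83.8 over the old samples for Dnah2, and 46.6 and 83.8 for Dnah9, and these single transcripts and fragment numbers were not tested. The other 4 heavy chains, Dnah5, Dnah10, Dnah7a and Dnah1, had means of 0.0737, 0.0735, 0.0330 and 0.0260 FPKM and were below the filter. Dnah7a shares near-identical sequence with its paralogs Dnah7b and Dnah7c, so that its value is uncertain. Summed over the 9 heavy chains, the level was 2.55, 1.26 and 2.80 FPKM in the young and 3.16, 2.57 and 2.89 FPKM in the old samples, with young 2 the lowest.

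The intermediate and light chains Dnai1, Dnai2 and Dnali1 assemble with the heavy chains, and the groups overlapped in each. Dnai1 had 1.08, 1.03 and 0.361 FPKM in the young and 0.0716, 1.75 and 0.728 FPKM in the old samples. Old 1 and old 2 were the lowest and the highest of all 6 samples, and the log2 change was -0.41 with an SE of 0.85. Most of this level came from a transcript of 500 nt, ENSMUST00000119127, and the gene overlaps Enho (86.1 FPKM) on the opposite strand. Dnai2 and Dnali1 had fitted log2 changes of -0.36 (SE 0.43) and -0.01 (SE 0.59).

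Among the radial spoke genes, Rsph9 (ENSMUSG00000023966, chr17:46122035-46144216, minus strand) encodes a protein of the spoke head. It had 31.8, 21.9 and 25.0 FPKM in the young and 36.2, 31.3 and 34.7 FPKM in the old samples. Only young 1 reached into the range of the old group. The log2 change was 0.39 (SE 0.14, 95% interval 0.06 to 0.72), and the adjusted p was 0.122 by limma. Rsph9 overlaps Mrps18a, a mitochondrial ribosomal protein gene on the opposite strand at 43.7 FPKM.

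Rsph1, another spoke head gene, was far lower than Rsph9, with 0.689, 0.330 and 0.642 FPKM in the young and 0.274, 1.23 and 0.339 FPKM in the old samples. Its highest value, in old 2, and its lowest, in old 1, belonged to the same group, and the log2 change was -0.07 (SE 0.56). Rsph4a and Lrrc23 had means of 0.131 and 0.371 FPKM and fitted log2 changes of 0.63 (SE 0.59) and -0.13 (SE 0.69). The 4 spoke genes therefore differed widely in level, from 0.131 to 30.1 FPKM.

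Ccdc39 and Ccdc40 form the molecular ruler that sets the spacing along the doublet, and Drc1 is a core protein of the nexin-dynein regulatory complex. Drc1 (ENSMUSG00000073102, chr5:30281388-30366695, plus strand) had 1.83, 1.75 and 2.61 FPKM in the young and 3.28, 4.07 and 2.82 FPKM in the old samples. Every old sample was above every young sample, and the log2 change was 0.70 (SE 0.23, 95% interval 0.17 to 1.23), but the adjusted p of 0.0962 by limma missed the threshold. Ccdc39 had 3.15, 3.48 and 3.52 FPKM in the young and 3.45, 2.76 and 2.72 FPKM in the old samples.

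The groups overlapped in Ccdc39, whose log2 change of -0.19 had a 95% interval of -0.57 to 0.20. Ccdc39 overlaps Ttc14 (31.4 FPKM) on the opposite strand. Its partner Ccdc40 was far less abundant, with a mean of 0.0753 FPKM, and was not tested.

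Tektins line the inside of the doublet microtubules. Tekt1 (ENSMUSG00000020799, chr11:72344722-72362442, minus strand) had 0.815, 1.30 and 0.941 FPKM in the young and 1.58, 1.60 and 1.87 FPKM in the old samples. The groups did not overlap, and the log2 change was 0.69 (SE 0.25, 95% interval 0.11 to 1.28, adjusted p = 0.125 by limma). Tekt2 had the largest fitted rise of the set, with 0.188, 1.56 and 0.0666 FPKM in the young and 0.606, 1.35 and 1.83 FPKM in the old samples.

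The groups overlapped in Tekt2, and its log2 change of 1.55 had an SE of 0.85 and a 95% interval of -0.43 to 3.52. The high values of young 2, old 2 and old 3 came from ENSMUST00000141990, a transcript of 334 nt with 1.38, 1.12 and 1.46 FPKM in these samples and 0 in the others. On such a short transcript few fragments make a large FPKM. Tekt4 and the inner microtubule protein gene Cfap52 had means of 0.0622 and 0.0936 FPKM and were not tested.

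Of the genes of the central pair apparatus, which regulates the beat, Hydin had 0.223, 0.242 and 0.222 FPKM in the young and 0.143, 0.156 and 0.200 FPKM in the old samples. All old samples were below all young samples, but the log2 change of -0.31 had an SE of 0.43 and an adjusted p of 0.677 by limma. The SD of its FPKM was only 0.011 in the young and 0.030 in the old samples. The SE of limma is drawn toward that of genes of similar level and is not the spread of these pools alone. Spag6l had a fitted log2 change of -0.58 (SE 0.60), and Spag17 was at 0 in 4 of the 6 samples, with 0.0105 FPKM in old 1 and 0.00977 FPKM in old 3.

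Of the other axonemal genes, Cfap44, a protein tied to the inner arm motors, had 2.65, 2.84 and 2.30 FPKM in the young and 2.18, 2.19 and 1.63 FPKM in the old samples. The groups did not overlap, yet the log2 change of -0.37 (SE 0.20, 95% interval -0.83 to 0.10) had an adjusted p of 0.276 by limma. Its partner Cfap43, at a mean of 0.114 FPKM, had a fitted log2 change of 0.57 (SE 0.59), and Ccdc113, at 0.111 FPKM, of 0.27 (SE 0.63). Ak7, an axonemal adenylate kinase, had a mean of 0.0829 FPKM and was not tested.

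The fitted changes had smaller SEs for the more abundant members. limma draws each SE toward that of genes of similar level, so part of this contrast is set by the fit. The median SE of the log2 change was 0.23 for the 7 members whose mean reached 1 FPKM and 0.59 for the 17 below it. In the 12 tested members outside the 12 most abundant, the log2 change lay between -0.81 and 1.04, the SE between 0.43 and 0.70, and the 95% interval held 0 in all 12. The 10 members below the filter reached at most 0.192 FPKM in any sample, on an estimated 0.999 to 90.1 fragments over all 6 samples.

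Other genes of the same structures were compared from lists of known components. Of 60 further axonemal genes in the table, 43 were tested, with a median log2 change of 0.26 against 0.01 over all genes. At an unadjusted limma p under 0.05, 5 were higher and 4 lower, against 14.6% and 13.1% of all genes tested. Among the axonemal genes reported here, 1 fell past the threshold, against 3.81% of all genes tested. Spef1, which bundles microtubules, fell from 5.62, 4.39 and 4.99 to 3.19, 2.97 and 3.14 FPKM (log2 change -0.67, SE 0.15, adjusted p = 0.0369 by limma). Its groups did not overlap, and its call was lost without any 1 of the 6 samples. The most abundant genes of this list were Dnal4, Drc4 and Dnal1, with means of 17.8, 9.41 and 6.25 FPKM, and Cfap221 and Cfap73 were listed at 0.

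Of 13 further regulators of multiciliated cells, 9 were tested, with a median log2 change of -0.06. Of these, 0 passed the adjusted limma threshold, against 5.65% higher and 3.81% lower of all genes tested. At an unadjusted limma p under 0.05, 1 was lower, against 13.1% of all genes tested. The most abundant of the 13 were E2f5, E2f4 and Rfx1, with means of 17.4, 8.17 and 3.63 FPKM, which other cells also express. Of 15 dynein arm assembly factors, 11 were tested and 0 passed the adjusted threshold, with a median log2 change of 0.07. At an unadjusted limma p under 0.05, 2 were higher, against 14.6% of all genes tested. The most abundant assembly factors, Pih1d1 (36.6 FPKM), Cfap298 (24.2 FPKM) and Dnaaf5 (6.03 FPKM), were well above the dynein heavy chains. The list as a whole was not, with a median of 0.989 FPKM, against 0.990 FPKM for the heavy chain Dnah11. Its lowest gene had a mean of 0.0115 FPKM.

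Primary cilium genes were expressed at another level. The 56 genes of primary cilia and intraflagellar transport had a median of 10.2 FPKM, and all 56 were tested, against 0.211 FPKM and 24 of 34 for the motile cilia genes. The median log2 change of the 56 genes was 0.02. Past the adjusted limma threshold, 1 was higher and 1 lower, against 5.65% and 3.81% of all genes tested. An unadjusted limma p under 0.05 was reached by 6 higher and 5 lower genes, against 14.6% and 13.1% of all genes tested. Kifap3, a subunit of the kinesin-2 motor, fell from 33.4, 36.6 and 28.8 to 21.2, 21.6 and 19.7 FPKM (log2 change -0.65, SE 0.10, adjusted p = 0.0186 by limma). Ift43 rose from 10.7, 12.2 and 13.4 to 15.4, 16.3 and 17.1 FPKM (log2 change 0.43, SE 0.11, adjusted p = 0.0498 by limma), a call that was lost under scaling by median of ratios. Without old 2, neither gene was past the threshold.

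**Figure D4:**
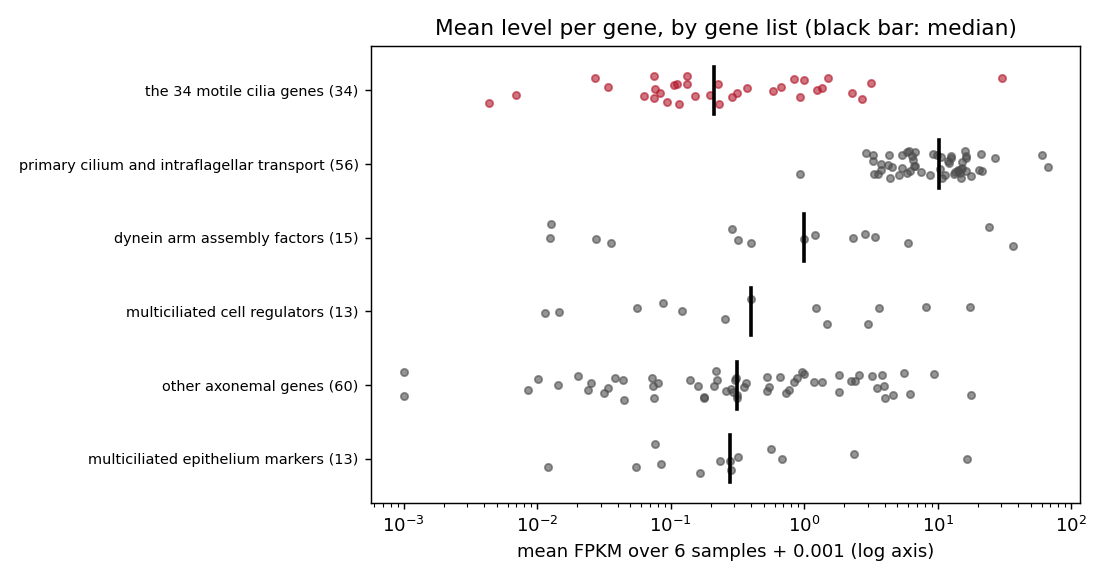
Mean FPKM over the 6 samples (x axis, + 0.001, log scale) of each gene in 6 lists, 1 point per gene, with the number of genes in parentheses and the median as a black bar. The motile cilia genes (red, median 0.211 FPKM) spread over several orders of magnitude, and the primary cilium genes (median 10.2 FPKM) lie mostly above them.

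Markers of multiciliated epithelium were low in most cases. Of 13 such markers, 9 were tested and 0 passed the adjusted limma threshold, against 5.65% higher and 3.81% lower of all genes tested. At an unadjusted limma p under 0.05, 1 was higher, against 14.6% of all genes tested. The 13 markers had a median level of 0.278 FPKM. Their summed level was 14.7 to 26.3 FPKM in the young and 21.3 to 22.8 FPKM in the old samples. Tppp3, which is not restricted to ciliated cells, held most of this with a mean of 16.7 FPKM. Cdhr4 had a mean of 2.35 FPKM and Cfap144 of 0.680 FPKM, and Sntn, a defining marker of ciliated airway cells, was above 0 in old 2 alone, at 0.0665 FPKM.

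Markers of other cell types moved with age beside these genes. Of all genes tested, 3.81% fell and 5.65% rose past the adjusted limma threshold. Of 15 hair cell genes, 6 fell and 0 rose. Their sum was 736 to 975 FPKM in the young and 385 to 454 FPKM in the old samples. Of 10 neuronal genes, 5 fell and 0 rose, with sums of 526 to 1039 and 352 to 384 FPKM. Of 9 epithelial genes, 7 were tested, and 4 (Epcam, Krt8, Krt18 and Krt14) rose, with sums of 231 to 299 FPKM in the young and 417 to 471 FPKM in the old samples. Without old 2, 0 of the hair cell and 0 of the neuronal genes were past the threshold, and 1 epithelial gene was. The part of these shifts in the levels of Foxj1, Ccdc114 and the other members was not tested.

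Of 13 markers of airway and middle ear secretory cells, 10 were tested and 2 rose, Agr2 and Reg3g, against 5.65% of all genes tested. Scgb1a1 was listed at 0 in all samples. The 13 markers summed to 20.8 to 175 FPKM in the young and 31.9 to 69.8 FPKM in the old samples. In the young samples most of the sum was Bpifa1, a secreted protein of the upper airway and middle ear. Without old 2, neither Agr2 nor Reg3g was past the threshold. Of 8 choroid plexus genes, 7 were tested and 2 fell (Kl and Kcnj13, with 1 left without old 2), against 3.81% of all genes tested. The 8 genes summed to 89.2 to 292 FPKM in the young and 75.1 to 88.9 FPKM in the old samples. Young 1, the highest sample for Ttr, was also the highest for Ccdc114. Without it the log2 change of Ccdc114 was -1.07 with an adjusted p of 0.114 by limma. That of Foxj1 was -1.12 with an adjusted p of 0.0834 by limma. The Ccdc114 call was also lost without any other 1 sample (adjusted p 0.0670 to 0.136 by limma). That of Foxj1 was lost without any other except young 3. The part of choroid plexus tissue in these changes was not tested. Of 3 vestibular genes, 0 passed the adjusted limma threshold and 0 an unadjusted p under 0.05. Of all genes tested, 14.6% were higher and 13.1% lower at that unadjusted limma p. The 3 genes summed to 3.14 to 4.47 FPKM in the young and 3.38 to 5.08 FPKM in the old samples.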

How the data were processed

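Basilar membrane RNA from 3 young and 3 old pools was made into directional libraries and sequenced. Per the submitters' processing notes, the tools were CASAVA 1.8, TopHat2 2.0.9, Cufflinks 2.1.1 and Cuffdiff 2.1.1, with GRCm38, and the authors deposited FPKM per transcript. The annotation release was not given in the sources used here.

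Of 55679 Ensembl transcripts, 55275 were matched to GENCODE release M21 and their FPKM summed per gene, without further scaling. Dnai1 and Dnai2 are named Dnaic1 and Dnaic2 there. The test was limma 3.58.1 in R 4.3.3 (lmFit, eBayes with trend) on log2(FPKM + 0.1) with age group as the only term, a mean FPKM of at least 0.1, Benjamini-Hochberg adjustment over all 19465 genes and a threshold of 0.05. Cuffdiff, the test of the study, needs reads and was not run. The code was tested on simulated data.

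Fragment numbers were estimated for transcripts of at least 500 nt from the steps of low FPKM values, of which 90.4% to 91.8% lay within 0.1 of a whole number, against 20% by chance. They carry counting error, and also errors of isoform assignment and of the depth estimate. A gene was taken as at 0 below 0.001 FPKM.

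Values in every sample are given for Foxj1 and Mcidas, members past the threshold, the 12 most abundant members and those with the largest fitted rise and fall. Other genes are named where they pass the threshold, are among the 3 most abundant of their list or are markers at 0. A single gene of the axonemal list is left unreported. Hydin, Spag17 and several short summaries of low members were added to account for every member, after their values were seen. The members and the lists were chosen with earlier results of these data known, so no p is given for a list. The pseudocount, filter, scaling, variance trend, sample weights, replicate block, choice of transcripts and each sample left out were varied. The labels do not say that same-numbered pools share a litter or day. The limma p-values rest on the spread between these pools, drawn toward that of genes of similar level. Of 7.42 degrees of freedom, 3.42 come from those genes.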

Additional observations from a re-analysis of the deposited data

How the results depend on the processing

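No member was higher in old past the adjusted threshold in any alternative run, and 4 (16.7% of those tested, against 14.6% of all genes) were at an unadjusted p under 0.05. The count of lower members, 2 as reported, was 0 with no filter on low values, 1 with no variance trend, 1 with the most abundant transcript of each gene and 0 to 1 with each sample left out. With the replicate block it was 0, at 730 genes called instead of 1840. The deviations of same-numbered samples correlated at 0.02, -0.04 and 0.01, and those of differently numbered samples at -0.05 to 0.04. Such correlations over all genes cannot show whether same-numbered samples shared a litter or day, which was not tested. Over 17 alternatives, Foxj1 stayed negative (-1.23 to -0.66) and was past the threshold in 10 (adjusted p 0.0185 to 0.110 by limma), and Ccdc114 stayed negative (-2.13 to -0.80) and was past it in 7 (0.0283 to 0.136). The median log2 change of the members, 0.02, was -0.19 with a mean of at least 1 FPKM (7 members), -0.17 after quantile normalization and -0.16 to 0.14 with each sample left out. The direction turned for Rsph1 (0.015 with a pseudocount of 1, 0.28 with sample weights, -0.64 to 0.27 with each sample left out), for Dnah6 (-0.067 after quantile normalization, -0.10 to 0.20 with each sample left out) and for Dnai1 (0.086 with sample weights, -1.17 to 0.54 with each sample left out). The cause of these shifts was not tested. The number of all genes called, 1840, ranged from 62 without old 2 to 2403 with sample weights. The 17 tested members below 1 FPKM had a median SE of 0.59, and the part of depth in it was not tested.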
